A study of Mus musculus with 12 samples.

Results

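The beta-catenin destruction complex was followed through 8 of its genes in colorectal tissue of mice: the scaffolds Apc, Apc2 and Axin1, the kinases Gsk3a, Gsk3b and Csnk1a1, the substrate Ctnnb1 (beta-catenin) and the ubiquitin ligase subunit Btrc. The 8 genes were chosen by name, through the gene names and accessions of the arrays, from 30139 genes or transcripts. They were read by 13 of the 39429 probes, and 12 of these probes and all 8 genes could be tested.

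RNA was measured on 12 single-colour Agilent arrays, with 4 arrays in each of 3 groups. The first group was colorectal polyps of Apc+/Δ716 mice, the second normal colorectal tissue of the same Apc+/Δ716 mice, and the third normal colorectal tissue of wild-type mice. All mice were C57BL/6N females aged 14 weeks. The mutants carry 1 wild-type Apc allele and 1 germline allele that encodes a truncated protein, and their sample titles give the genotype as Apc+/-. Polyps came from mice 103, 106, 107 and 110, and so did the Apc normal samples. The wild-type samples came from mice 102, 104, 105 and 108. Values are listed below in that order of mice. The samples were bulk tissue, in which fewer cells of a type and less RNA per cell cannot be told apart. The altered allele is present throughout the mutant animals, so Apc normal tissue is heterozygous tissue and not a wild-type control.

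When Wnt ligands are absent, APC and AXIN1 hold beta-catenin in a complex in which CK1 alpha (the product of Csnk1a1) and then the GSK3 kinases phosphorylate it. The phosphorylated protein is bound by the F-box protein beta-TrCP (the product of Btrc), tagged with ubiquitin and degraded. In the intestine, loss of APC lets beta-catenin accumulate and act with TCF factors on genes of crypt cells, and in Apc heterozygotes adenomas are known to form after the remaining allele is lost. Much of this control acts on proteins, which the arrays did not measure.

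Gsk3b, Csnk1a1, Btrc and Apc were read by several probes, and the other members by 1 probe each. Probes of Gsk3b, Csnk1a1 and Btrc did not all move alike, and the further Apc probe was not tested. Probes of Ctnnb1, Gsk3a, Gsk3b, Btrc and Apc2 are shown, each as written in the scanner files, 5′ to 3′. Their mm9 coordinates are those of the whole 60-base probe. Only the last 30 bases are given except for Gsk3b probe 2, whose coordinates stretch over far more than its own 60 bases, as those of a probe across an exon junction do. Capitals mark the letters AATAAA, the canonical poly(A) signal, searched on the probe strand only. These letters were found in the last 30 bases of 10.6% of the 39429 probes, and a match is a description of the letters and no evidence that the site is used.

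Ctnnb1, chr9:120869274-120869333, plus strand: taattcataatcacgctaattgtaatctgg
Gsk3a, chr7:26013279-26013338, minus strand: ctgttcAATAAAttattggcatgaaaccct
Gsk3b probe 1, chr16:38241177-38241236, plus strand: gcctttggcgtgtgatgtcaggtatgacag
Gsk3b probe 2, chr16:38187987-38191632, plus strand: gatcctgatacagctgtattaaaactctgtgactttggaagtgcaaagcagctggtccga
Gsk3b probe 3, chr16:38246094-38246153, plus strand: ggtcatgtgactgctgcttcAATAAAgaca
Btrc probe 1, chr19:45607701-45607760, plus strand: atatgttcacaagttaggatgatggtaata
Btrc probe 2, chr19:45604418-45604477, plus strand: ctggcgaggcttggcctgcacaaaggcttg
Apc2, chr10:79780940-79780999, plus strand: tcatatctttAATAAAgcgagccactccat

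Probe 1 of each gene is the brighter probe, which stands for the gene. The probes of Apc and Csnk1a1 lie on chromosome 18, where Apc probe 1 has coordinates 34432157 to 34436232, also wider than its own length, and that of Axin1 lies on chromosome 17 at 26332106 to 26332165 (mm9). No transcript annotation of mm9 was used here, so exons and untranslated regions are not assigned. The position of the Apc probes relative to the truncating change was not established, and their levels therefore do not check the genotype labels.

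Each level below is the log2 signal minus the 75th percentile of its array, so that 0 means a signal equal to that percentile. Differences are log2 fold changes ± SE from limma on the 8 arrays of each comparison, called where the Benjamini-Hochberg adjusted p over 20082 genes was under 0.05. On each array 64.6% to 73.8% of spots were well above background, and none was saturated. The 75th percentile itself lay at 11.06 to 11.20 on the log2 signal scale in polyps, 10.59 to 10.75 in Apc normal tissue and 10.52 to 10.72 in wild-type tissue. Polyps differed from both normal tissues over much of the transcriptome, with 45.5% of genes called against Apc normal tissue (20.5% higher and 24.9% lower). Against wild-type tissue 60.2% were called (27.4% higher and 32.8% lower). Apc normal and wild-type tissue differed in 0.169% of genes (0.149% higher and 0.0199% lower).

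Members of the destruction complex differed by -0.77 to 0.27 between polyps and Apc normal tissue. In polyps against Apc normal tissue, Apc and Btrc were lower and the other 6 members did not pass the test, so that 0 of 8 were called higher and 2 of 8 lower. The median difference of the 8 was -0.02, beside -0.06 over all genes tested. In polyps against wild-type tissue, Csnk1a1 and Ctnnb1 were higher, Apc and Btrc were lower and 4 members did not pass, with a median of -0.05, which was also the median over all genes. Between Apc normal and wild-type tissue limma called 0 of 8 members, 0 of 8 had an unadjusted p under 0.05 (17.1% of all genes did), and the median was 0.03 beside -0.02 over all genes. Levels of polyps and Apc normal tissue did not overlap for 2 of 8 members, beside 45.1% of all genes tested. Polyps and wild-type tissue did not overlap for 4 of 8, beside 56.7%, and the normal tissues for 0 of 8, beside 10.3%. These comparisons share groups of arrays, so their calls are not independent of each other. All wild-type arrays filled 1 slide and the mutant arrays the other slides, so comparisons with wild-type tissue are also between slides.

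**Figure D1:**
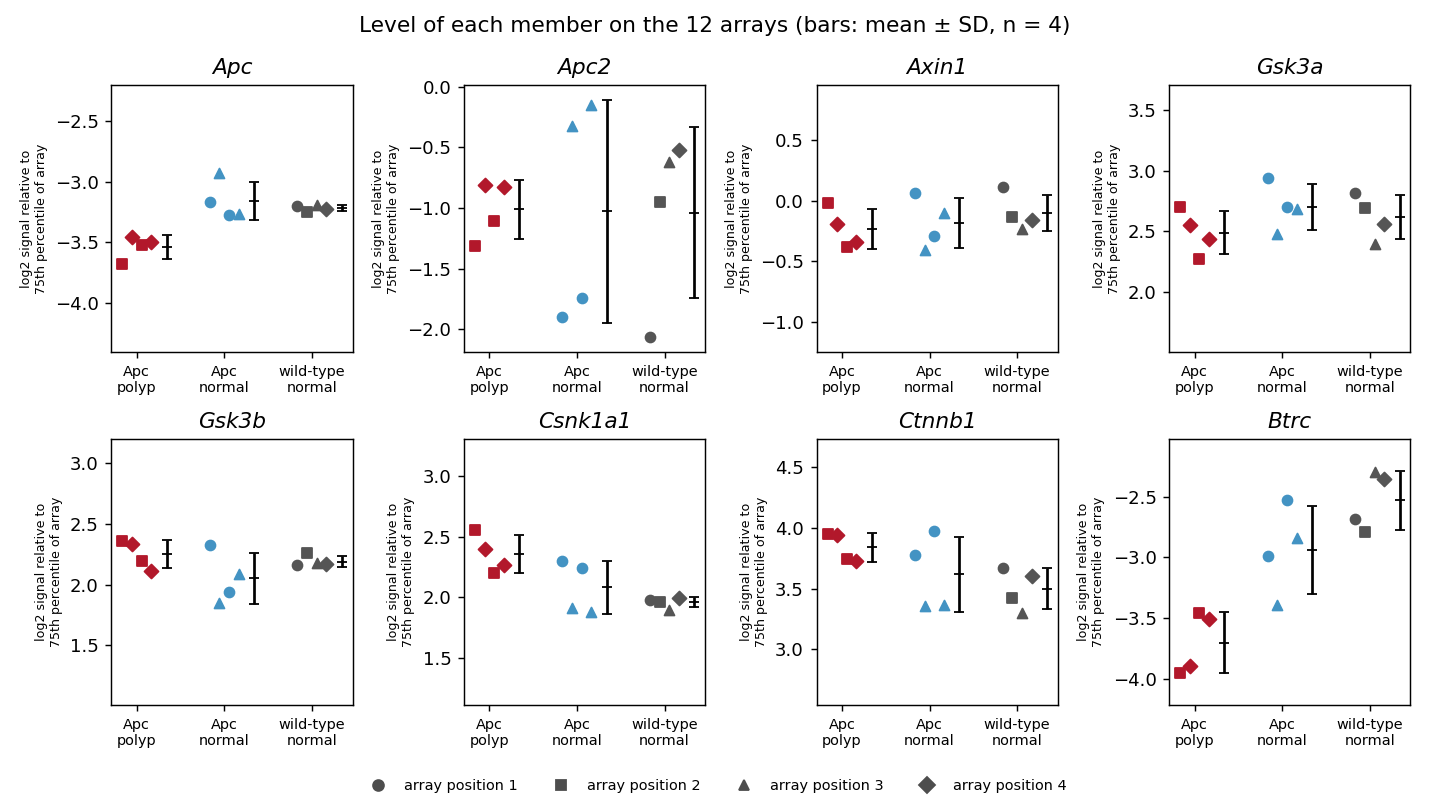
Level of each of the 8 genes (log2 signal minus the array's 75th percentile, probe 1) on the 12 arrays, with the mean ± SD of 4 arrays beside each group and marker shapes for the position of the array on its slide. Every panel spans at least 2.2 log2 units. Apc and Btrc are lower in all 4 polyps than in any normal sample, and Apc2 spreads most within Apc normal tissue, where 2 arrays lie at -1.90 and -1.74 and the others at -0.32 and -0.15. Polyps have no overlap with Apc normal tissue for 45.1% of all genes tested, and with wild-type tissue for 56.7%.

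**Figure D2:**
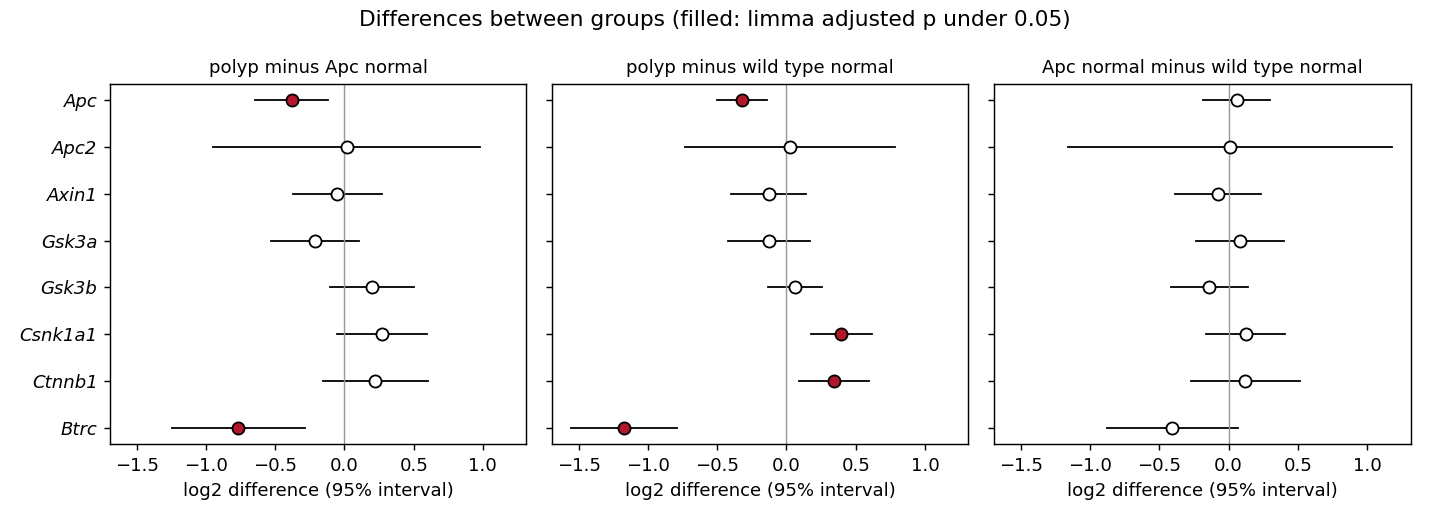
Log2 differences of the 8 genes with 95% intervals for polyps minus Apc normal tissue, polyps minus wild-type tissue and Apc normal minus wild-type tissue, filled where the limma adjusted p was under 0.05. The filled points are Apc and Btrc (lower) against Apc normal tissue, these same 2 genes and Csnk1a1 and Ctnnb1 (higher) against wild-type tissue, and none between the normal tissues.

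Among the scaffolds, Apc, the tumour suppressor that carries the mutation, was the only one called in either comparison of polyps. Its levels were -3.67, -3.45, -3.53 and -3.50 in polyps, -3.17, -2.93, -3.27 and -3.26 in Apc normal tissue, and -3.20, -3.25, -3.19 and -3.23 in wild-type tissue. The 4 polyps lay below all 8 normal samples, while Apc normal and wild-type samples overlapped. A lack of overlap with polyps was common, at 45.1% of all genes for Apc normal tissue and 56.7% for wild-type tissue. Against Apc normal tissue Apc was lower in polyps by a factor of 1.30 (-0.38 ± 0.11, n = 4 and 4, limma adjusted p = 0.0265), and against wild-type tissue by a factor of 1.25 (-0.32 ± 0.08, limma adjusted p = 0.00741). Within mice the polyp minus Apc normal difference was -0.51, -0.52, -0.25 and -0.23 for mice 103, 106, 107 and 110, negative in 4 of 4. Apc normal and wild-type tissue differed by 0.06, with a 95% interval of -0.18 to 0.30 and limma adjusted p = 0.818. That interval includes 0.

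The lower Apc level in polyps is a level relative to the array. Before scaling, the Apc probe gave 184 to 195 signal units in polyps, 161 to 202 in Apc normal tissue and 157 to 184 in wild-type tissue, so its unscaled signal was not lower in polyps, whose 75th percentile was higher. That percentile was 11.06 to 11.20 in polyps and 10.59 to 10.75 in Apc normal tissue, on the log2 signal scale. Polyp arrays were thus brighter as a whole, and unscaled signals of 3 other members are given for description only. The share of all genes with higher unscaled signals in polyps was not computed. Ctnnb1 gave 28400 to 36400 units in polyps and 15800 to 26300 in Apc normal tissue. Csnk1a1 gave 10200 to 13800 units in polyps and 5700 to 8520 in Apc normal tissue, and Gsk3b gave 9240 to 12000 in polyps and 5570 to 8670 in Apc normal tissue. The scaled levels of these 3 genes overlapped between the groups. The call against Apc normal tissue also did not hold without 1 of several arrays. Leaving out an Apc normal array, of mouse 103 or 106, gave limma adjusted p = 0.0510 and 0.0516. Leaving out a polyp array, of mouse 103, 107 or 110, gave limma adjusted p = 0.0712, 0.0571 and 0.0531. A further Apc probe, 47482 bases away on chromosome 18, was well above background on 1 of 4 polyp, 2 of 4 Apc normal and 2 of 4 wild-type arrays, and was not tested. By correlation over the 12 arrays, the named genes most like Apc were Mien1 (r = 0.947), Apoc2 (0.946) and Trappc2l (0.942), values that include the shared difference between polyps and normal tissue.

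Axin1, the scaffold that limits assembly of the complex, did not pass the test in any comparison. It stood at -0.02, -0.20, -0.38 and -0.35 in polyps, 0.06, -0.40, -0.29 and -0.11 in Apc normal tissue, and 0.11, -0.13, -0.24 and -0.16 in wild-type tissue, and all groups overlapped. The difference between polyps and Apc normal tissue was -0.05, with a 95% interval of -0.37 to 0.27 (limma adjusted p = 0.788). Its paralogue Axin2, a feedback target of beta-catenin, rose by 2.82 ± 0.31 in polyps (limma adjusted p = 0.000318). Per array, Axin1 minus Axin2 averaged 2.01 ± 0.45 in polyps and 4.87 ± 0.26 in Apc normal tissue (SD, n = 4 each), a shift of -2.87. The groups did not overlap, and the exact two-sided permutation p was 0.0286, the smallest that 4 against 4 allows, and 0.0572 after adjustment over 4 paralogue pairs. Axin2 was well above background on 4 of 4 polyp arrays and 3 of 4 Apc normal arrays, so the size of its rise is uncertain. With normexp and quantile normalization the shift was -1.72.

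Apc2, a paralogue of Apc known mainly from the nervous system, varied widely within the normal tissues. It stood at -1.31, -0.81, -1.11 and -0.82 in polyps, -1.90, -0.32, -1.74 and -0.15 in Apc normal tissue, and -2.06, -0.95, -0.62 and -0.52 in wild-type tissue. Polyps lay inside the range of Apc normal tissue, and their difference of 0.02 had a wide 95% interval, -0.95 to 0.98 (limma adjusted p = 0.978). The values followed the position of the array on its slide, numbered 1 to 4 in the names of the scanner files. Apc2 lay at -2.06 to -1.74 on the 3 arrays at position 1, at -1.31 to -0.95 at position 2, at -0.62 to -0.15 at position 3 and at -0.82 to -0.52 at position 4, across all 3 slides. In a limma fit of all 12 arrays with group and position, position passed the test for Apc2 (adjusted p = 0.000195), as it did for 7.3% of genes, and for none of the other 7 members.

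Position is partly tied to tissue, since polyps were at positions 2 and 4, Apc normal tissue at positions 1 and 3, and wild-type tissue at all 4. With position as a term, a setting added after the values were seen, the Apc2 difference between polyps and Apc normal tissue was -0.59 ± 0.15 (limma adjusted p = 0.0221), against 0.02 ± 0.42 without it. In that setting 30.4% of genes were called for this comparison, and Apc (-0.34, limma adjusted p = 0.163) and Btrc (-0.68, limma adjusted p = 0.209) were not. The adjustment between these positions rests on the 4 wild-type arrays alone. For polyps against wild-type tissue with position as a term 51.9% of genes were called, among them Csnk1a1, Ctnnb1 and Btrc, while Apc was at -0.30 (limma adjusted p = 0.0633). What produced the pattern by position was not tested. The named genes most like Apc2 over the 12 arrays, looked up after its pattern was seen, were Slc28a1 (r = 0.987), Krtap5-2 (0.983) and Cort (0.983).

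**Figure D3:**
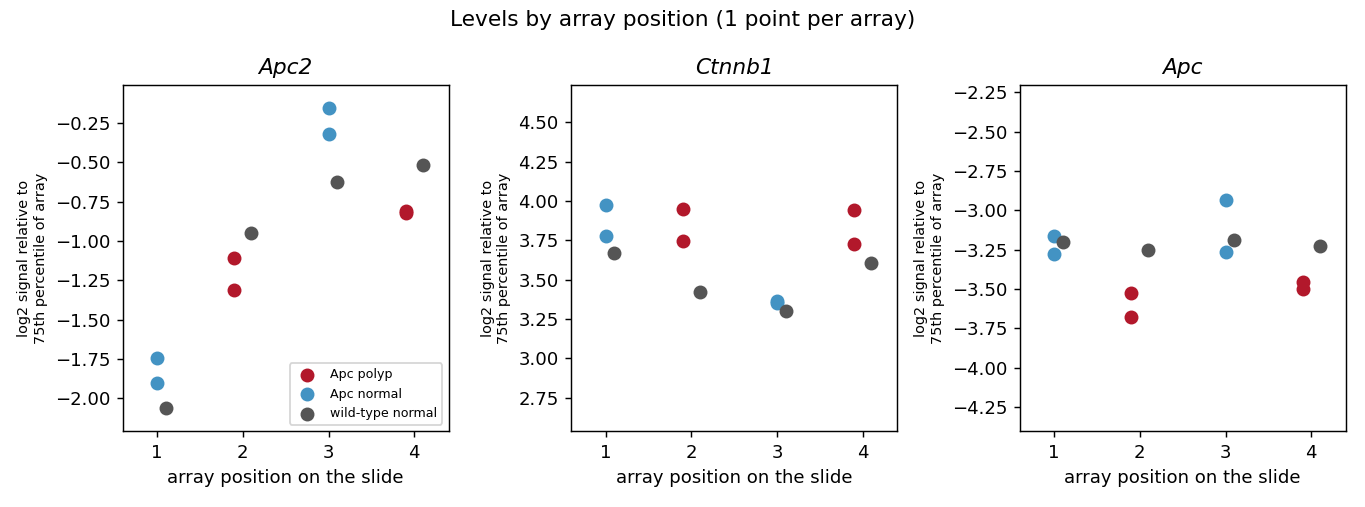
Levels of Apc2, Ctnnb1 and Apc (log2 signal relative to the array's 75th percentile) by array position on the slide, 1 point per array, in polyps (red), Apc normal tissue (blue) and wild-type tissue (grey). Apc2 is lowest at position 1 in both normal tissues, Ctnnb1 is lowest at position 3, and the lower Apc levels are those of polyps, which have arrays at positions 2 and 4 only.

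Of the kinases, none passed the test between polyps and Apc normal tissue with the scaling used here. After quantile normalization Csnk1a1 passed (0.40, limma adjusted p = 0.0370), also with normexp before it (0.38, limma adjusted p = 0.0442). Csnk1a1, the priming kinase of beta-catenin, stood at 2.56, 2.40, 2.20 and 2.27 in polyps, 2.30, 1.91, 2.24 and 1.88 in Apc normal tissue, and 1.98, 1.96, 1.90 and 1.99 in wild-type tissue. Polyps lay above all 4 wild-type samples and overlapped with Apc normal tissue. The difference was 0.27 ± 0.14 against Apc normal tissue (limma adjusted p = 0.153) and 0.40 ± 0.10 against wild-type tissue, 1.32-fold (limma adjusted p = 0.00752). A further probe, 11648 bases away on chromosome 18, read 0.03 ± 0.18 against Apc normal tissue and 0.07 ± 0.15 against wild-type tissue (limma adjusted p = 0.901 and 0.687 over all probes). The gap between the Csnk1a1 probes was wider in polyps by 0.24 than in Apc normal tissue and by 0.32 than in wild-type tissue, with groups that did not overlap.

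Gsk3a and Gsk3b encode the alpha and beta forms of GSK3, which overlap in function in the complex. Gsk3a stood at 2.70, 2.55, 2.27 and 2.43 in polyps, 2.94, 2.48, 2.70 and 2.68 in Apc normal tissue, and 2.82, 2.69, 2.39 and 2.56 in wild-type tissue. Gsk3b stood at 2.36, 2.33, 2.20 and 2.11 in polyps, 2.33, 1.85, 1.94 and 2.09 in Apc normal tissue, and 2.16, 2.26, 2.17 and 2.17 in wild-type tissue. All groups overlapped for both genes. Polyps differed from Apc normal tissue by -0.21 ± 0.14 for Gsk3a (limma adjusted p = 0.247) and by 0.20 ± 0.13 for Gsk3b (limma adjusted p = 0.253). After quantile normalization these were -0.06 and 0.32, and neither passed (limma adjusted p = 0.729 and 0.0752).

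Per array, Gsk3a minus Gsk3b averaged 0.24 ± 0.12 in polyps, with a range of 0.08 to 0.34. In Apc normal tissue it averaged 0.65 ± 0.08, with a range of 0.59 to 0.77 (SD, n = 4 each). The shift of -0.41 had an exact two-sided permutation p of 0.0286, the smallest possible, and 0.0572 after adjustment over the 4 paralogue pairs, which did not pass the threshold of 0.05. Only the shift between groups is read here, since levels of different probes are not comparable. The shift was computed with Gsk3b probe 1. Against Apc normal tissue, probes 1, 2 and 3 read 0.20, 0.03 and 0.34, and probe 3, which holds AATAAA, had a limma adjusted p of 0.0942 over all probes.

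Ctnnb1, which encodes beta-catenin, stood at 3.95, 3.94, 3.75 and 3.73 in polyps, 3.78, 3.36, 3.98 and 3.37 in Apc normal tissue, and 3.67, 3.42, 3.30 and 3.60 in wild-type tissue. All 4 polyps lay above the wild-type samples, and the highest single value was in Apc normal tissue. Ctnnb1 was 1.27-fold higher in polyps than in wild-type tissue (0.34 ± 0.11, limma adjusted p = 0.0265), while its difference from Apc normal tissue was 0.22, with a 95% interval of -0.16 to 0.60 (limma adjusted p = 0.302). The call against wild-type tissue did not hold when 1 of 4 arrays was left out: wild-type mouse 104 or 105 (limma adjusted p = 0.0688 and 0.0639), or polyp of mouse 103 or 106 (limma adjusted p = 0.0621 and 0.0679). After quantile normalization the difference from Apc normal tissue was 0.48 and passed (limma adjusted p = 0.0339), as did that of Csnk1a1 (0.40, adjusted p = 0.0370). Ctnnb1 was lowest at array position 3, at 3.30 to 3.37, where 2 Apc normal arrays and 1 wild-type array lay (limma adjusted p of position = 0.157).

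The named genes whose levels were most like Ctnnb1 were Ranbp9 (r = 0.957 over 12 arrays), Irgq (0.949) and Scyl2 (0.938). Their r over deviations from group means was 0.952, 0.924 and 0.908. Arrays share slides, positions and scaling, so these values describe likeness on these arrays.

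Btrc, whose product binds phosphorylated beta-catenin, gave the largest differences of the 8 genes in both comparisons of polyps. Probe 1 stood at -3.95, -3.89, -3.46 and -3.51 in polyps, -2.99, -3.40, -2.52 and -2.84 in Apc normal tissue, and -2.69, -2.79, -2.29 and -2.35 in wild-type tissue. All 4 polyps lay below all 8 normal samples, and the normal tissues overlapped. Of all genes tested, 45.1% had no overlap between polyps and Apc normal tissue, and 56.7% had none between polyps and wild-type tissue. Against Apc normal tissue Btrc was lower in polyps by a factor of 1.70 (-0.77 ± 0.21, limma adjusted p = 0.0176), and against wild-type tissue by a factor of 2.25 (-1.17 ± 0.17, limma adjusted p = 0.000461). Within mice the polyp minus Apc normal difference was negative in 4 of 4, at -0.96, -0.50, -0.94 and -0.67 for mice 103, 106, 107 and 110. The call against Apc normal tissue did not hold without the polyp array of mouse 106 (-0.70, limma adjusted p = 0.0526). Before scaling, probe 1 gave 144 to 202 signal units in polyps and 147 to 290 in Apc normal tissue, ranges that overlap. In wild-type tissue it gave 243 to 336 units. With normexp and quantile normalization the differences of polyps were smaller, at -0.47 against Apc normal tissue and -0.81 against wild-type tissue (limma adjusted p = 0.0219 and 0.000147). Apc normal tissue was at -0.41 ± 0.20 against wild-type tissue (limma adjusted p = 0.351).

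The Btrc probes did not give the same result. Probe 2, 3283 bases upstream and assigned to the same transcripts in the files, stood at -4.59, -5.13, -4.91 and -4.89 in polyps, -4.73, -5.59, -4.52 and -4.64 in Apc normal tissue, and -4.99, -5.10, -4.91 and -4.94 in wild-type tissue. All groups overlapped, with differences of -0.01 ± 0.24 between polyps and Apc normal tissue and 0.10 ± 0.12 between polyps and wild-type tissue (limma adjusted p = 0.973 and 0.484 over all probes). Its signals were dim, at 60.9 to 97.4 units in polyps, 32.1 to 72.9 in Apc normal tissue and 47.8 to 54.7 in wild-type tissue. Probe 1 minus probe 2 averaged 1.18 ± 0.37 in polyps, 1.93 ± 0.20 in Apc normal tissue and 2.45 ± 0.17 in wild-type tissue (SD, n = 4 each). The shifts were -0.75 against Apc normal tissue and -1.28 against wild-type tissue.

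These shifts between probes of Btrc and Csnk1a1 were looked at because the probes were seen to differ, and are given with no test. Tested probe by probe, 2 of the 12 member probes were called in polyps against Apc normal tissue, beside 45.2% of 26112 probes. Against wild-type tissue 4 of 12 were called, beside 60.4% of probes. Which of the differing probes reads the level of the whole transcript was not tested.

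**Figure D4:**
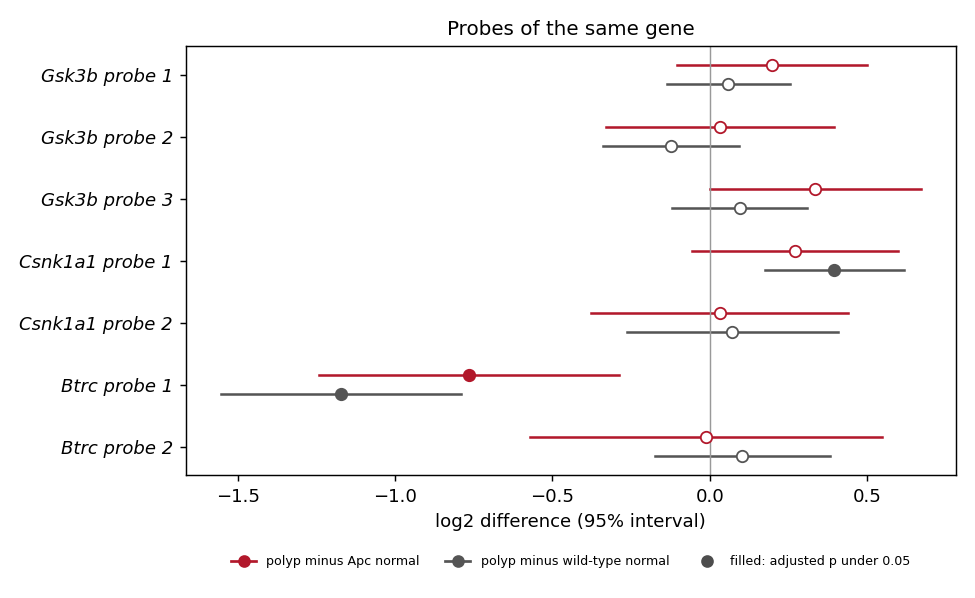
Log2 difference with 95% interval for each probe of Gsk3b, Csnk1a1 and Btrc, for polyps minus Apc normal tissue (red) and polyps minus wild-type tissue (grey), filled where the limma adjusted p over all probes was under 0.05. Btrc probe 1 lies at -0.77 and -1.17 while probe 2 lies at -0.01 and 0.10, and Csnk1a1 is called with probe 1 against wild-type tissue only.

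Fbxw11, the paralogue of Btrc that also recognises phosphorylated beta-catenin, was at -0.02 ± 0.17 between polyps and Apc normal tissue, which did not pass. Btrc probe 1 minus Fbxw11 averaged -6.51 ± 0.36 in polyps and -5.77 ± 0.37 in Apc normal tissue (SD, n = 4 each). The exact two-sided permutation p was 0.0571, and 0.0761 after adjustment over the 4 paralogue pairs. Btrc probe 2 differed by -0.01 between these groups, so this shift depends on the Btrc probe used. Apc minus Apc2 shifted by -0.40 with overlapping groups (exact permutation p = 0.371), and by -0.11 without the Apc normal array of mouse 103, -0.20 without that of mouse 107 and -0.72 without that of mouse 110.

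Other genes that act on the complex were taken as lists chosen for their roles, with earlier results of these data known. Of 17 further kinases and phosphatase subunits, 4 rose and 3 fell in polyps against Apc normal tissue, and the median was -0.03. Csnk1e, a CK1 form that acts with Dishevelled, rose 3.12-fold (1.64 ± 0.23, limma adjusted p = 0.000892), and Ppp2r1b, the beta scaffold subunit of the phosphatase PP2A, rose by 0.82 ± 0.13 (limma adjusted p = 0.00162). The PP2A regulatory subunit gene Ppp2r5a fell by 0.87 and the alpha scaffold subunit gene Ppp2r1a fell by 0.46 (limma adjusted p = 0.00117 and 0.0190). Over all genes 20.5% rose and 24.9% fell in this comparison.

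Of 14 genes of ubiquitin ligases and deubiquitinases, 4 rose and 0 fell, beside 20.5% and 24.9% of all genes, with a median of 0.12. Skp1, the adaptor that joins beta-TrCP to its cullin, rose by 0.84 ± 0.15 (limma adjusted p = 0.00265), and Siah1b, a ligase of another route of beta-catenin degradation, rose by 0.94 ± 0.23 (limma adjusted p = 0.0108). The cullin gene Cul1 was at -0.24 and the RING subunit gene Rbx1 at 0.12, and neither passed. In this list 4 of 14 genes had an unadjusted p under 0.05, beside 52.9% of all genes.

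Of 22 regulators of the scaffolds and of GSK3, 8 rose and 4 fell, with a median of 0.17. The shares over all genes were 20.5% and 24.9%. Amer2, whose product recruits APC to the membrane, was well above background on 4 of 4 polyp and 0 of 4 Apc normal arrays. Of these groups only polyps, where it was high, could bring it into the tests, so its p-value is not given. Its level in polyps was higher by at least 12.9-fold, and its place among the 8 is no independent support. For such a bound the dim group takes, on each array, the lowest signal that is well above background, or the probe's own if higher. Nkd1, a feedback inhibitor that binds Dishevelled, rose by 3.83 ± 0.30 (limma adjusted p = 8.92e-05). The tankyrase genes Tnks2 and Tnks, whose products mark AXIN for degradation, rose by 0.95 ± 0.13 and 0.82 ± 0.17. Frat1 and Frat2, whose products bind GSK3, fell by 1.63 and 1.12 (limma adjusted p = 0.000266 and 0.000354).

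Of 13 junction and cytoskeletal partners of beta-catenin and Apc, 1 rose and 4 fell, with a median of -0.21. The shares over all genes were 20.5% and 24.9%. Mapre1, which encodes the microtubule end protein EB1 that binds APC, rose by 0.30 ± 0.09 (limma adjusted p = 0.0256). Ctnna2, a catenin gene known from neurons, fell by 2.64 and Cdh2, N-cadherin, fell by 1.26 (limma adjusted p = 0.00165 and 0.00348). Ctnna2 was well above background on 1 of 4 polyp arrays and 4 of 4 Apc normal arrays, so its size is uncertain. The epithelial partners Cdh1 (E-cadherin) at -0.40 and Ctnna1 at -0.21 did not pass.

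Of 17 transcripts known to rise with beta-catenin signalling, 17 rose in polyps, with a median of 3.13, and Axin2 and Nkd1 were in both this list and that of the regulators. Lgr5, an intestinal stem cell receptor, rose by 3.13 ± 0.16 and Wif1, a secreted Wnt inhibitor, by 5.35 ± 0.34 (limma adjusted p = 2.58e-05 and 4.40e-05). The smallest rise in this list was 0.91, for Ephb3, larger in size than the difference of any of the 8 members in the same comparison. With array position as a term the counts higher and lower were 2 and 1 of 17 for the kinases and 2 and 0 of 14 for the ligases. They were 7 and 3 of 22 for the regulators, 1 and 3 of 13 for the partners and 15 and 0 of 17 for the readout. In that setting 30.4% of all genes were called in either direction. Against wild-type tissue, without that term, polyps had 4 genes higher and 5 lower among the kinases and 6 and 2 among the ligases. There were 6 and 8 among the regulators, 1 and 7 among the partners, and 17 and 0 in the readout. Over all genes 20.5% rose against Apc normal tissue, and 27.4% were higher and 32.8% lower against wild-type tissue.

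Between Apc normal and wild-type tissue limma called 0 genes in each of the first 4 lists, in which 0 of 17, 0 of 14, 6 of 22 and 1 of 13 genes had an unadjusted p under 0.05, beside 17.1% of all genes. In the list of beta-catenin readouts 2 of 17 rose, beside 0.149% of all genes. This comparison is also between slides, and its count of 34 called genes ranged from 0 to 813 over the alternatives. Wif1 averaged -0.56 ± 0.60 in Apc normal tissue and -3.01 ± 0.39 in wild-type tissue (SD, n = 4 each), a difference of 2.45 ± 0.32 (limma adjusted p = 0.0402). Sp5, a transcription factor gene, was well above background on 3 of 4 Apc normal and 0 of 4 wild-type arrays, and its level in Apc normal tissue was higher by at least 2.08-fold (limma adjusted p = 0.0344).

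**Figure D5:**
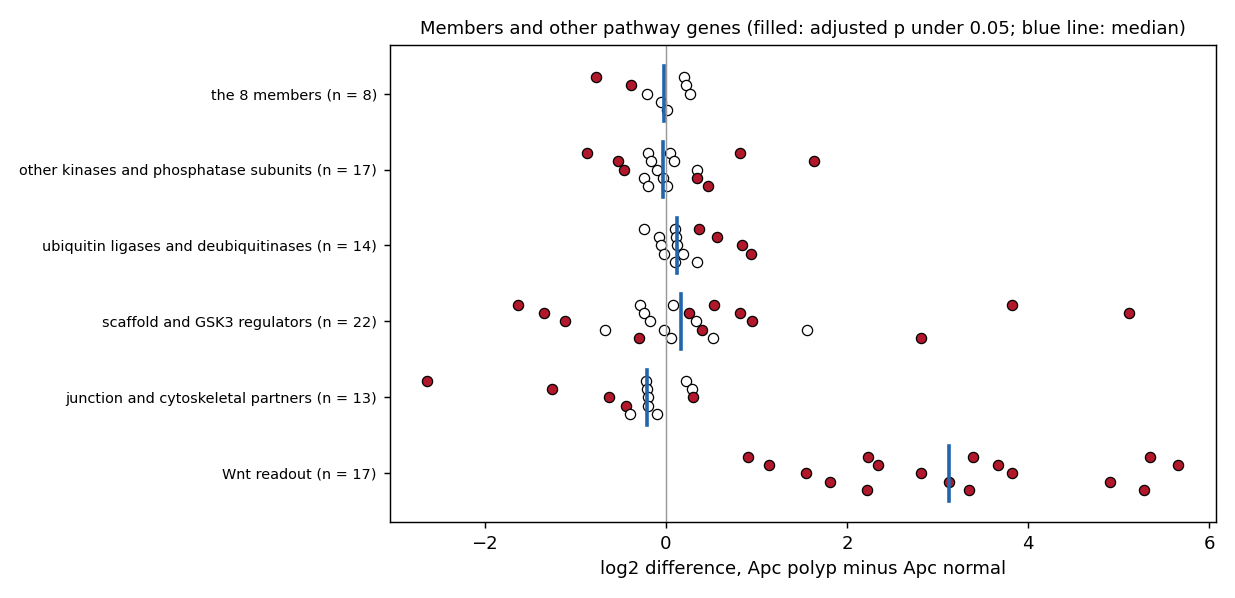
Log2 difference of polyps minus Apc normal tissue for the 8 members and 5 lists of pathway genes, 1 point per gene, filled where the limma adjusted p was under 0.05, with the median of each list as a blue line. Amer2 at 5.11 is plotted at its fitted value, though it was well above background on 0 of 4 Apc normal arrays. The members lie between -0.77 and 0.27, and the readout genes between 0.91 and 5.66. The largest, Sp5, was well above background on 3 of 4 Apc normal arrays, like Axin2, Tcf7 and Apcdd1. Prox1 was so on 2 of 4, and the sizes of these rises are uncertain.

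Markers of several cell types moved with the same comparison. Of all genes, 20.5% were called higher in polyps than in Apc normal tissue and 24.9% lower. Summarised as the mean level of each marker list, smooth muscle (10 of 10 markers lower) ranged over -0.52 to 0.998 in polyps, 3.72 to 4.24 in Apc normal tissue and 4.22 to 4.83 in wild-type tissue. Enteric neuron and glia markers (10 of 12 lower) ranged over -4.32 to -3.37 in polyps, -2.17 to -1.75 in Apc normal tissue and -1.85 to -1.10 in wild-type tissue. General epithelial markers (3 of 8 lower) averaged 4.15 ± 0.32 in polyps, 4.85 ± 0.38 in Apc normal tissue and 4.91 ± 0.16 in wild-type tissue (SD, n = 4 each). Absorptive colonocyte (7 of 7), goblet (5 of 5) and enteroendocrine (7 of 7) markers were lower and proliferation markers (5 of 5) higher in polyps, against Apc normal tissue. Of 7 haematopoietic markers 2 rose, the neutrophil genes S100a8 and S100a9 by 6.13 ± 1.25 and 6.17 ± 1.14, and 1 fell, Itgam by 1.91 (limma adjusted p = 0.00491, 0.00319 and 0.000142). Of 3 adipocyte markers 1 was lower, and the mean of that list was -4.15 ± 1.91 in polyps and -0.68 ± 2.50 in Apc normal tissue (SD, n = 4 each). Fibroblast markers (1 of 6 higher and 1 lower) averaged 2.43 ± 0.29 in polyps and 2.61 ± 0.41 in Apc normal tissue. Endothelial markers (1 of 4 higher and 1 lower) averaged -0.77 ± 0.23 in polyps and -0.84 ± 0.25 in Apc normal tissue (SD, n = 4 each). All 8 epithelial markers were present among the genes tested, and their mean level lay above the 75th percentile in every sample. The part of these shifts in the lower Apc and Btrc levels of polyps, and in the lower levels of Ctnna2 and Cdh2, was not tested.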

How the data were processed

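Per the labels, total RNA from 12 colorectal samples was labelled with Cy3 and hybridised to single-colour Agilent mouse arrays. The deposited files of the scanner give intensity per spot, from which Agilent Feature Extraction 10.7.3.1 had subtracted background and spatial trends within each array, per the headers and the submitters' processing notes. No scaling between arrays is recorded. The deposited value table holds a ratio to a constant per array, made in a way not given in the sources used here, and served as an alternative. Its columns have medians of 1.00, and on each array 99.8% to 99.9% of its values matched the processed signal over a constant to within 1%, so it is not centred per gene.

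After removal of control spots and 1403 outlier spots, the spots of a probe were averaged. From the deposited intensity, log2 processed signal minus the 75th percentile of each array was computed. Of 39429 probes, 27508 were named by accession, 3544 by symbol and 404 by synonym (RefSeq, GRCm38.p6, names only), and 7973 by the file alone. The probe with the highest mean stood for a gene, and 20082 of 30139 genes entered the tests, those well above background in every sample of some group. Tests were two-sided with limma 3.58.1 (lmFit, eBayes; R 4.3.3) and a Benjamini-Hochberg threshold of 0.05. Steps were checked on simulated data. The number of arrays limits the precision.

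The 8 members, the lists and the rule for named genes (all members and probes, the 2 smallest p each way per list, the 3 genes most like Apc and Ctnnb1) were chosen with earlier results of these data known. Tnks, Tnks2, Ephb3, Cul1, Rbx1, Cdh1 and Ctnna1 were named after their values were seen. Wild-type arrays filled slide 1, mice 103 and 106 slide 2, and mice 107 and 110 slide 3. Titles give each polyp and an Apc normal sample the same mouse number, and the deviations of such arrays from their groups correlated at r = 0.455, 0.170, 0.143 and 0.282, against -0.329 to 0.193 between mice. Alternatives changed the scaling, the background correction, the filter on dim probes, the choice of probe, the variance model, the block for mouse or slide and the arrays included. Array position was added as an alternative after the data were seen. Of the listed names, 1 in the readout list and 1 in that of partners was a synonym of a gene already in the same list, which was counted once.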

Additional observations from a re-analysis of the deposited data

Results flagged for a closer look

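Gsk3b probe 1 in wild-type tissue had 1 sample apart from the others: mouse 104 stood at 2.26, beside 2.16, 2.17 and 2.17 in mice 102, 105 and 108. The gap made up 0.843 of the whole range of the group, above Dixon's critical value for 4 samples. The range is small on the log2 scale, and chance flags about 1 in 20 groups. None of the other groups of the member probes had such a sample.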

How the results depend on the processing

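For polyps against Apc normal tissue limma called 9129 genes, and 3466 and 1902 on slides 2 and 3 alone, which have 4 arrays each. A paired fit with mouse number as a replicate block called 9321 and changed no call of a member. Within slides 2 and 3 the difference was -0.52 and -0.24 for Apc and -0.73 and -0.80 for Btrc. With array position as a term, Apc2 turned to -0.59. Csnk1a1 and Ctnnb1 each gained a call, as higher, in 2 of 24 alternatives, those with quantile normalization. With normexp their limma adjusted p was 0.0442 and 0.0425. The Apc call was lost in 10 of 24 alternatives and the Btrc call in 5 of 24, among them the mean over its probes (-0.39, limma adjusted p = 0.163). Against wild-type tissue Ctnnb1 lost its call in 9 of 21, Csnk1a1 in 2 of 21 (0.23 for the mean over its probes, limma adjusted p = 0.109), Apc in 2 of 21 and Btrc in 0 of 21, though Btrc moved to -0.53 with the mean over its probes.

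Between Apc normal and wild-type tissue the count of 34 genes became 3 with normexp and quantile normalization, 2 with no filter on dim probes, 226 with all 12 arrays in 1 fit, 14 with a variance trend and robust eBayes, 813 with slide as a random block, 242 with position as a term, and 2 to 530 without 1 array, the highest without the Apc normal array of mouse 103. On positions 1 and 3 alone limma called 0, with 2149 genes at an unadjusted p under 0.05. No member was called in any of 21 alternatives there. Each comparison with wild-type tissue is also a comparison between slides.

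With paired sign flips over 4 mice (replicate block) the exact p was 0.125, the smallest possible, for Gsk3a minus Gsk3b (-0.41) and Axin1 minus Axin2 (-2.87). With Btrc probe 1, Btrc minus Fbxw11 was -0.90 after quantile normalization and -0.64 after normexp, each with an unadjusted exact permutation p of 0.0286. The cause of these changes was not tested. Dim signals limit Btrc probe 2 and the further Apc probe. In Apc normal tissue they also limit Axin2, Amer2, Sp5, Tcf7, Apcdd1 and Prox1.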
